A study of Mus musculus with 27 samples.

Results

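The change of gene expression between non-pregnant mice and day 16 of pregnancy was compared between 2 neighbouring zones of the liver lobule, the middle zone (zone 2) and the zone around the central vein (zone 3). The comparison addresses how the border between the middle and the central zone moves in late gestation. It was made with the 12 libraries labelled non-pregnant (NP) or 16 days post coitum (dpc16) and zone 2 or zone 3, out of 27 in the series, and these were chosen by their labels alone. The 4 groups are NP zone 2, NP zone 3, dpc16 zone 2 and dpc16 zone 3, with 3 libraries each. All mice were wild-type females, C57BL/6 in the labels and C57BL/6N in the study's methods, with no treatment named in the labels. The methods give an age of 8 to 14 weeks, without a separate age for each group. Frozen liver sections of 5 µm were cut by laser microdissection into the zones, areas of 2 mm2 were collected per zone, and RNA of these areas was depleted of ribosomal RNA and sequenced. The study's methods say in general that experiments were done in different mice, whereas the labels do not tie the library numbers to mice, so the p-values measure the spread between these libraries, which may be partly technical.

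Blood enters the liver lobule at the portal vein and leaves it at the central vein, and hepatocytes along this path differ in what they make. Cells around the portal vein carry urea synthesis, gluconeogenesis and amino acid breakdown. Cells around the central vein carry glutamine synthesis and the oxidation of drugs and other foreign compounds. Wnt ligands and R-spondins from endothelial cells of the central vein keep β-catenin active in the surrounding hepatocytes, where it works with TCF transcription factors. Axin2, a scaffold of the complex that degrades β-catenin, is itself switched on by the pathway and serves as its readout. A gene that steps down from zone 3 to zone 2 therefore marks the outer edge of the central zone. If its level changes by different amounts in the 2 zones between NP and dpc16, the step becomes larger or smaller.

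Promoters of 4 zone 3 genes on which the results below turn are shown as RefSeq gives them on GRCm38.p6, from 250 bases before to 50 bases after the gene start. Axin2 and Glul (glutamine synthetase) are classical central genes. Lect2, a secreted hepatocyte protein, and Cyp2c69, a cytochrome P450, were among the genes with the smallest p in the comparison. Capitals mark the TCF motif CTTTGA or its opposite strand TCAAAG, and no other motif was searched.
Axin2, chr11:108920099-108920398, plus strand: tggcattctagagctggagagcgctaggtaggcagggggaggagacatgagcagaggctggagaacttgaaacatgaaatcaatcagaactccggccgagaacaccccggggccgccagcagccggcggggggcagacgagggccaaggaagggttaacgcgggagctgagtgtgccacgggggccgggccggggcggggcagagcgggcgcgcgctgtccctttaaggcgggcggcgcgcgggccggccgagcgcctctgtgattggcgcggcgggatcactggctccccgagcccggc
Glul, chr1:153899679-153899978, plus strand: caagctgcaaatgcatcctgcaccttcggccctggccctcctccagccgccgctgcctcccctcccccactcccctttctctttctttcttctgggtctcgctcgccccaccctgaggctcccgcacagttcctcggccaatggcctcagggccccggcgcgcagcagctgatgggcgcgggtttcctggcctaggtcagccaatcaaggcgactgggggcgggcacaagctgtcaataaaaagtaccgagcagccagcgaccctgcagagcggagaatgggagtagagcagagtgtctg
Lect2, chr13:56548489-56548788, minus strand: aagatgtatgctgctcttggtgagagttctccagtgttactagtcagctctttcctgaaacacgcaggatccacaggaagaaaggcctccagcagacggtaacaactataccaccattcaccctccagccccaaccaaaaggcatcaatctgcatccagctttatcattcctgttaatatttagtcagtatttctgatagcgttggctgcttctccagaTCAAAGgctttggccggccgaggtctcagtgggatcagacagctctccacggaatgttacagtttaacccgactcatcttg
Cyp2c69, chr19:39886720-39887019, minus strand: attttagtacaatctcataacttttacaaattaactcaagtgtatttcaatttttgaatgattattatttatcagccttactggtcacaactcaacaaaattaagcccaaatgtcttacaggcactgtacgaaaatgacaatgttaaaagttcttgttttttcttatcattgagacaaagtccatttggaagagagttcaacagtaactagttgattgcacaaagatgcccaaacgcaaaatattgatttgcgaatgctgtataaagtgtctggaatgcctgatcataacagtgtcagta
The motif occurred once in the Lect2 window, on the opposite strand and beginning 31 bases before the start, and its letters were not in the other 3 windows. Of 32851 RefSeq promoter windows of 300 bases, 5257 (16%) hold it on either strand, so that 1 match is a description of the letters and not of a bound site.

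The 12 libraries had an estimated 11.55 to 33.34 M mapped reads (M for the prefix mega), and 10581 to 11745 genes at an FPKM (fragments per kilobase of transcript scaled to the number of mapped fragments) of at least 1. Albumin took 3.71% to 20.97% of the FPKM sum. The replicate 3 libraries of dpc16 zone 2 and dpc16 zone 3 and the replicate 2 library of NP zone 3 stood apart from the other 9. The mean log2(FPKM + 1) of 20 connective tissue and smooth muscle genes was 5.64, 5.70 and 4.54 in them, against 1.62 to 3.60 in the others. Genes of the Y chromosome summed to 23.2, 16.6 and 7.92 FPKM in the same 3 libraries and to at most 2.24 in the others, although all mice are labelled female. Results are therefore given with and without these libraries where this changed them. RNA of a zone is a sum over its cells, and fewer cells of a type and less RNA per cell cannot be told apart.

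The zone labels were checked against 12 marker genes. All 7 markers of zone 3 (Axin2, Glul, Tbx3, Cyp1a2, Cyp2e1, Oat and Slc1a2) were lower in every zone 2 library than in every zone 3 library, at NP as well as at dpc16. All 5 markers of zone 1 (Cyp2f2, Sds, Hal, Cyp17a1 and Aldh1b1) were higher in every zone 2 library at both stages. Among all 12076 genes tested, 5.61% were lower and 6.37% higher in zone 2 without overlap at NP, and 3.82% and 3.4% at dpc16.

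At NP, 26 genes differed between zones 2 and 3 at an adjusted p under 0.05 (0.215% of those tested), of which 16 were higher (0.132%) and 10 lower in zone 2 (0.0828%). At dpc16, 31 genes differed (0.257%), 10 higher (0.0828%) and 21 lower (0.174%). With a block for each number within each stage, which pairs the zones at NP as well as at dpc16, the dpc16 count was 100, with 31 higher and 69 lower, and the NP count was 58. Between NP and dpc16, 184 genes changed in zone 2 (1.52%), of which 62 rose (0.513%) and 122 fell (1.01%), and 87 in zone 3 (0.72%), of which 41 rose (0.34%) and 46 fell (0.381%). All dpc16 libraries lay above all NP libraries in 8.06% of genes in zone 2 and 8.17% in zone 3, and below them in 10.1% and 9.24%. Without the replicate 3 libraries of both dpc16 zones, 343 genes changed in zone 2 (198 rose and 145 fell) and 305 in zone 3 (187 rose and 118 fell), so the balance of directions rests on these libraries.

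The difference of the 2 changes (dpc16 minus NP in zone 2, less dpc16 minus NP in zone 3, on the log2(FPKM + 1) scale) is called the difference in change below. It is negative where the gene ended lower in zone 2 relative to zone 3 than it began. No gene passed the threshold for it with limma (0 of 12076, 0%). The unadjusted p was under 0.05 in 229 genes (1.9%), of which 101 had a positive (0.836%) and 128 a negative value (1.06%). The median over all genes was 0.004, and 49.5% of genes were negative. Cyp2c69 had the smallest p. Of 25 alternative fits, it passed in 5, namely with all 27 libraries, quantile normalization, array weights, a connective tissue covariate and the pairing by number (1 gene called, adjusted p = 0.039). Pnliprp1 passed in the fit of all 27 libraries alone, which called 2 genes, but was kept by the filter on low values only through dpc16 zone 3, where it is high.

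**Figure D1:**
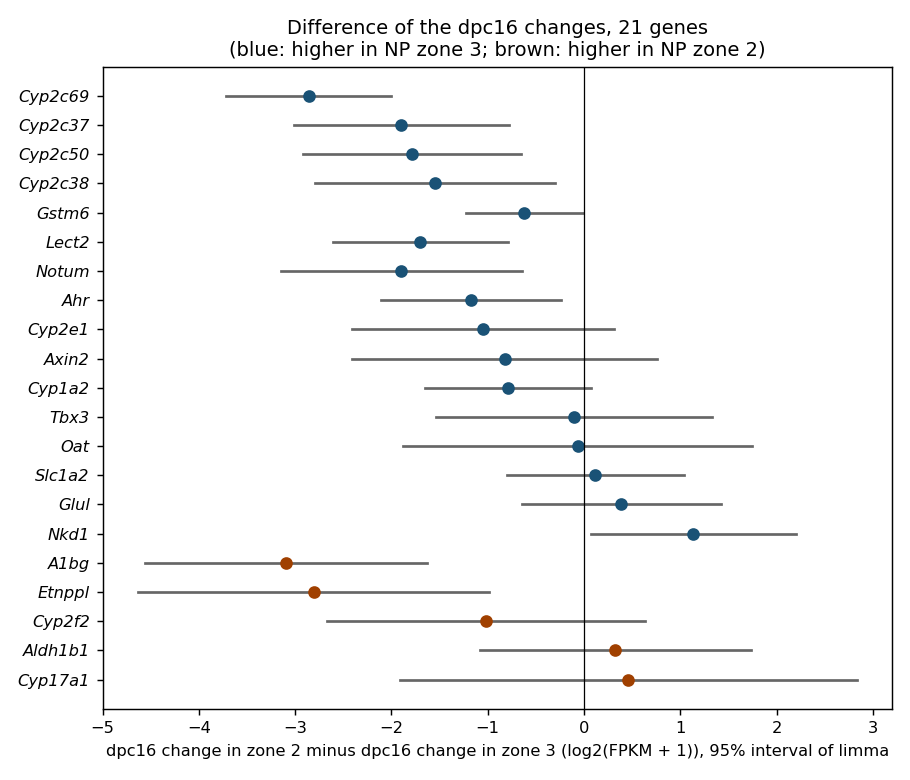
Difference in change between zones (log2, zone 2 minus zone 3) of 21 genes, with points at the limma estimate, bars at its 95% interval and colour for the zone in which the gene was higher at NP. Cyp2c69 at -2.86 and A1bg at -3.09 lie far to the left, and Axin2, with an interval from -2.41 to 0.76, crosses 0.

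Cyp2c69, Cyp2c37 and Cyp2c50, of a family of cytochrome P450 enzymes that oxidise drugs, fatty acids and steroids, fell in zone 2 at dpc16, and their step between the zones was called at dpc16 and not at NP. Cyp2c69 (ENSMUSG00000092008.2, chr19:39842814-39886799 on mm10) stood in zone 2 at 405, 452 and 535 FPKM in the NP libraries and at 54.7, 31.3 and 39.6 in the dpc16 libraries. In zone 3 it stood at 634, 753 and 901 FPKM at NP and at 583, 515 and 403 at dpc16. At dpc16 every zone 2 library lay far below every zone 3 library, whereas the NP zones, although they did not overlap, were close together. Cyp2c69 fell in zone 2 by 3.47 on the log2 scale (adjusted p = 2.3e-04), while its log2 change in zone 3 was -0.61 (adjusted p = 0.508). Its zone 2 minus zone 3 step went from -0.71 at NP (adjusted p = 0.767) to -3.57 at dpc16 (adjusted p = 2.1e-04). The dpc16 step and the zone 2 change passed in all 12 fits that leave out 1 library. The difference in change was -2.86 ± 0.39 (SE, 95% interval -3.72 to -2.0), with an unadjusted p of 1.2e-05 and an adjusted p of 0.146, so it did not pass. Without both dpc16 replicate 3 libraries it was -2.98 (adjusted p = 0.0847), and over the 25 alternatives it lay between -3.09 and -2.67 with adjusted p from 0.00599 to 0.769.

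Cyp2c37 stood in zone 2 at 433, 427 and 356 FPKM at NP and at 52.4, 22.5 and 20.6 at dpc16, and in zone 3 at 822, 899 and 1144 and at 354, 262 and 191. All dpc16 libraries lay below all NP libraries in each zone. It fell in both zones, by 3.75 in zone 2 (adjusted p = 4.9e-04) and by 1.86 in zone 3 (adjusted p = 0.043), and the zone 3 call held in only 2 of the 12 fits that leave out 1 library. Cyp2c50 in zone 2 stood at 273, 346 and 543 FPKM at NP and at 53.7, 25.8 and 36.2 at dpc16, and in zone 3 at 496, 616 and 974 and at 289, 226 and 196. It fell in zone 2 by 3.3 (adjusted p = 0.0016), and its log2 change in zone 3 was -1.51 (adjusted p = 0.111). Its dpc16 step was lost without dpc16 zone 2 replicate 2, dpc16 zone 3 replicate 1 or dpc16 zone 3 replicate 2. For Cyp2c37 the difference in change was -1.9 (95% interval -3.01 to -0.78) and for Cyp2c50 -1.79 (-2.92 to -0.66). Neither passed in limma after adjustment, with unadjusted p of 0.0031 and 0.005. Cyp2c38, with 19.7, 11.9 and 6.7 FPKM in zone 2 and 112, 75 and 47.2 in zone 3 at dpc16, had a step that passed at dpc16 (-2.55, adjusted p = 0.024) with all 12 libraries but in only 5 of the 12 fits that leave out 1 library. Its difference in change was -1.55 (unadjusted p = 0.019). Of the 13 Cyp2c genes tested, 10 had a negative and 3 a positive difference in change (Cyp2c29, Cyp2c55 and Cyp2c70). For Cyp2c29 it was 0.46, and its fall of 1.70 in zone 3 (adjusted p = 0.046) was called while its log2 change of -1.24 in zone 2 was not (adjusted p = 0.11). The zone 3 call of Cyp2c29 held in only 2 of the 12 fits that leave out 1 library, and whether its 2 changes differ was not shown. These genes are closely similar copies next to one another, and the values of each are uncertain where reads could be shared between them.

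**Figure D2:**
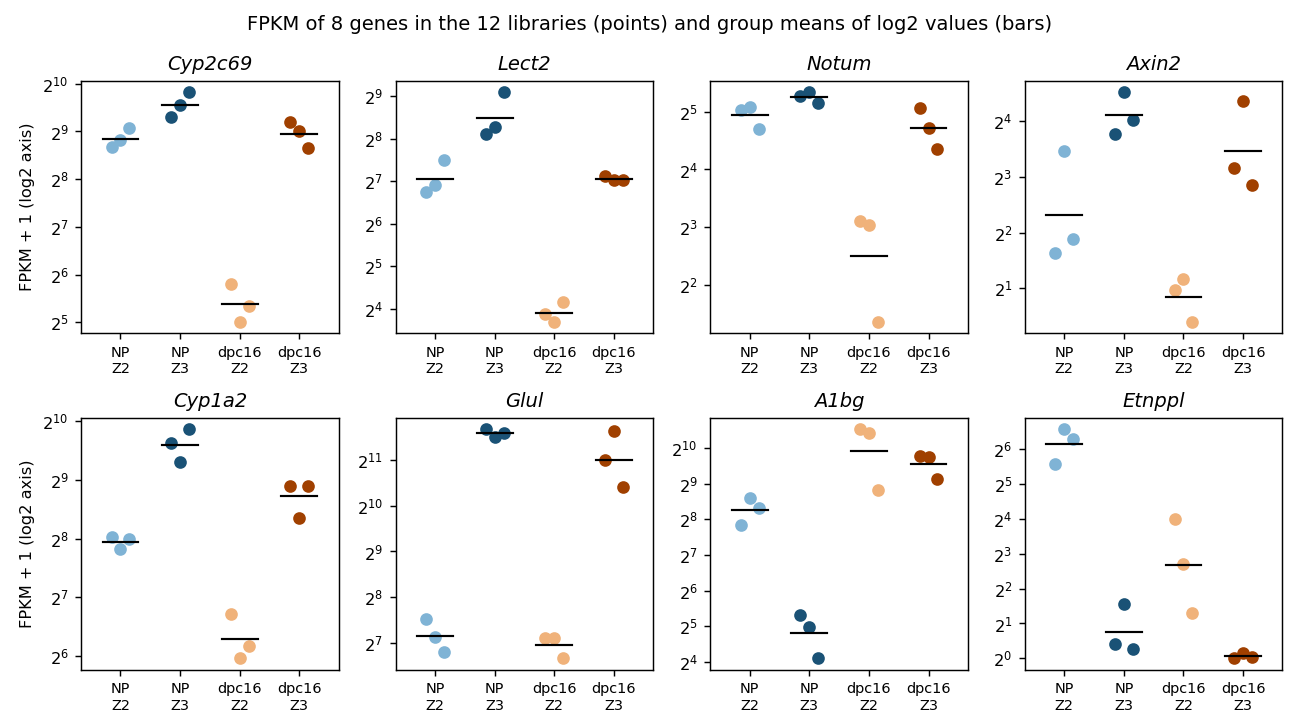
FPKM + 1 (vertical, log axis) of 8 genes in each of the 12 libraries (points), by stage and zone (Z2 and Z3), with a bar at the mean of the log2 values of each group. In Cyp2c69 and Lect2 the dpc16 zone 2 points lie below the other 3 groups, and in Glul the zones are far apart at both stages.

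The 22 genes listed as pericentral enzymes and regulators of foreign compound metabolism, Cyp2c genes among them, had mostly negative differences in change. The members of this list and of those below were chosen with earlier results of these data known. Shares of negative values in them are therefore descriptions, and the Cyp2c members may share reads. The value was negative in 18 of 22 (81.8%, against 49.5% of all genes), with a median of -0.60 beside 0.004 over all genes tested, and 4 genes (Cyp2c37, Cyp2c50, Cyp2c38 and Gstm6, all negative) had an unadjusted p under 0.05 (against 1.06% of all genes). The median zone 2 minus zone 3 step was -0.76 at NP and -1.36 at dpc16, with 0 genes called lower at NP and 4 at dpc16 (0.0828% and 0.174% of all genes). The median change was -1.29 in zone 2, where 4 members fell (Cyp2c37, Cyp2c50, Gstm6 and the flavin monooxygenase Fmo5, against 1.01% of all genes), and -0.69 in zone 3, where Cyp2c29 and Cyp2c37 fell (0.381% of all genes). These counts rest on single libraries. The zone 3 count was 0 in 10 of the 12 fits that leave out 1 library, and the zone 2 count ran from 2 (without NP zone 2 replicate 2) to 7 (without dpc16 zone 2 replicate 1), with Fmo5 called in 2 of the 12. The dpc16 step was called in 2 members when dpc16 zone 2 replicate 2, dpc16 zone 3 replicate 1 or dpc16 zone 3 replicate 2 was left out. Without the dpc16 and NP libraries that stood apart, the split was 13 negative and 9 positive with a median of -0.26. Without both dpc16 replicate 3 libraries it was 18 and 4 with a median of -0.47.

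Gstm6, a glutathione transferase, varied little between libraries. It stood at 49.4, 54.4 and 54.5 FPKM in NP zone 2, 103, 109 and 129 in NP zone 3, 23.7, 21.8 and 18.2 in dpc16 zone 2 and 70.7, 66.6 and 76.4 in dpc16 zone 3. It fell in zone 2 by 1.28 (adjusted p = 0.0081), and its difference in change was -0.62 (95% interval -1.23 to -0.01, unadjusted p = 0.046). The zone 2 call was lost without NP zone 2 replicate 2 and in the fit of all 27 libraries.

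The Wnt/β-catenin genes were followed by their place in the pathway. The ligand Wnt2 stood at 1.86, 1.4 and 1.3 FPKM in NP zone 2, 2.79, 6.67 and 4.79 in NP zone 3, 1.2, 1.54 and 1.42 in dpc16 zone 2 and 3.97, 3.93 and 3.89 in dpc16 zone 3. Every zone 3 library was above every zone 2 library at both stages, and the difference in change was 0.09 (95% interval -0.83 to 1.01), with the sign turning without NP zone 3 replicate 2 and without the 3 libraries that stood apart. Rspo3, which encodes an R-spondin that amplifies the Wnt signal, had a difference in change of -0.26 (-1.51 to 0.99), which turned to 0.09 without NP zone 2 replicate 2. The R-spondin receptor gene Lgr5 averaged 2.51 ± 0.993 FPKM (SD, n = 3) in NP zone 2 and 0.819 ± 1.14 in dpc16 zone 2, and 6.73 ± 1.25 and 5.79 ± 1.96 in zone 3. For Lgr5 the difference in change was -0.86 (-2.17 to 0.44). Lgr5 and Rnf43 below were picked for their roles after their values were seen.

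Among the feedback inhibitors, Axin2 (ENSMUSG00000000142.15, chr11:108920349-108950783) stood in zone 2 at 2.11, 9.98 and 2.69 FPKM at NP and at 0.972, 1.26 and 0.325 at dpc16. In zone 3 it stood at 12.7, 21.9 and 15.3 FPKM at NP and at 7.9, 19.6 and 6.24 at dpc16. The zone 2 libraries of dpc16 were all below those of NP, and the zone 3 libraries of the 2 stages overlapped. The log2 change was -1.47 in zone 2 (adjusted p = 0.217) and -0.65 in zone 3 (adjusted p = 0.82), and neither passed. The step between the zones was -1.78 at NP and -2.6 at dpc16, with adjusted p of 0.495 and 0.088. Its difference in change was -0.82 with a 95% interval from -2.41 to 0.76 (unadjusted p = 0.277), an interval that holds 0. It lay between -1.17 and -0.26 in the fits that leave out 1 library, at -0.90 without both dpc16 replicate 3 libraries, at -1.51 with a pseudocount of 0.1 and at -0.20 with a pseudocount of 5.

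Notum, an extracellular enzyme that removes the lipid from Wnt proteins and so inactivates them, stood in zone 2 at 31.7, 32.8 and 25 FPKM at NP and at 7.63, 7.24 and 1.57 at dpc16, and in zone 3 at 37.5, 39.4 and 34.6 and at 32.6, 25.5 and 19.5. At NP the zones were close together, and at dpc16 every zone 2 library was well below every zone 3 library. Notum fell in zone 2 by 2.43 (adjusted p = 0.012), and that call was lost without NP zone 2 replicate 1 or 2. Its log2 change in zone 3 was -0.54 (adjusted p = 0.799), and the difference in change was -1.9 (95% interval -3.15 to -0.65, unadjusted p = 0.0064).

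Nkd1, an inhibitor of Dishevelled, had a positive difference in change. It stood in zone 2 at 1.77, 3.66 and 0.929 FPKM at NP and at 1.13, 1.43 and 1.34 at dpc16, and in zone 3 at 9.38, 9.63 and 14.2 and at 2.91, 4.31 and 2.72. The zone 3 libraries of dpc16 were all below those of NP. The step of Nkd1 was called at NP (-2.03, adjusted p = 0.041, but in only 2 of the 12 fits that leave out 1 library) and was -0.89 at dpc16 (adjusted p = 1). Its difference in change was 1.14 (95% interval 0.07 to 2.2, unadjusted p = 0.038). Rnf43, a ubiquitin ligase that removes Wnt receptors, had a difference in change of -0.91 (-1.98 to 0.16). Inhibitors of the pathway thus had differences in change of both signs, and none passed.

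Among the targets that serve hepatocyte function, Lect2 (ENSMUSG00000021539.9, chr13:56542464-56548502) had the smallest p. It stood in zone 2 at 107, 119 and 179 FPKM at NP and at 13.7, 12 and 16.9 at dpc16. In zone 3 it stood at 276, 311 and 543 FPKM at NP and at 138, 129 and 130.3 at dpc16. The dpc16 libraries lay below the NP libraries in both zones without overlap. Lect2 fell in zone 2 by 3.14 (adjusted p = 4.9e-04), and its log2 change of -1.44 in zone 3 missed the threshold (adjusted p = 0.052). Its step went from -1.45 (adjusted p = 0.117) to -3.14 (adjusted p = 4.2e-04), and the dpc16 step was called in all 12 fits that leave out 1 library. For Lect2 the difference in change was -1.7 ± 0.42 (SE, 95% interval -2.61 to -0.79, unadjusted p = 0.0016) and did not pass after adjustment.

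Ahr, the receptor for dioxin and related aromatic compounds, stood in zone 2 at 16.4, 23 and 20.9 FPKM at NP and at 11.2, 11.9 and 6.49 at dpc16, and in zone 3 at 33.8, 32.9 and 41 and at 45.6, 55.4 and 27. Its step was called at dpc16 (-1.99, adjusted p = 0.02) and not at NP (-0.81, adjusted p = 0.727), and the difference in change was -1.17 (95% interval -2.11 to -0.24, unadjusted p = 0.018). The dpc16 call was lost when dpc16 zone 2 replicate 2, dpc16 zone 3 replicate 1 or dpc16 zone 3 replicate 2 was left out. Cyp1a2, a cytochrome P450 known to be induced through Ahr, stood in zone 2 at 260.5, 226 and 253 FPKM at NP and at 104, 61.3 and 70.7 at dpc16, and in zone 3 at 791, 629 and 932 and at 478, 326 and 477. Both zones were lower at dpc16 without overlap. Cyp1a2 fell in zone 2 by 1.67 (adjusted p = 0.013, called in 8 of the 12 fits that leave out 1 library), against a log2 change of -0.88 in zone 3 (adjusted p = 0.243). Its difference in change was -0.79 (-1.65 to 0.08). Cyp2e1, the cytochrome P450 of ethanol, averaged 3454 ± 1230.2 FPKM (SD, n = 3) in NP zone 2 and 1147 ± 440.0 in dpc16 zone 2, and 9856 ± 2458 and 6844 ± 2372 in zone 3, with a difference in change of -1.05 (-2.41 to 0.31).

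Glul, the glutamine synthetase of the innermost cells around the vein, stood in zone 2 at 184, 139.7 and 110.5 FPKM at NP and at 138, 137 and 101 at dpc16. In zone 3 it stood at 3264, 2889.7 and 3092 FPKM at NP and at 2039, 3152 and 1349 at dpc16. Every zone 3 library was many times above every zone 2 library at either stage, with steps of -4.43 and -4.04 (adjusted p = 1.2e-04 and 2.1e-04), both called in all 12 fits that leave out 1 library. The difference in change of Glul was 0.39, and its 95% interval from -0.65 to 1.42 leaves room for changes of either sign. Slc1a2, a glutamate transporter, stood at 16, 16 and 16.6 FPKM in NP zone 2, 427, 280.1 and 349 in NP zone 3, 41.5, 40.1 and 25.5 in dpc16 zone 2 and 848, 784 and 447 in dpc16 zone 3. It was higher at dpc16 without overlap in each zone, with log2 changes of 1.06 and 0.94 that did not pass (adjusted p = 0.122 and 0.238). The values for the difference in change were 0.12 (-0.80 to 1.04) for Slc1a2, -0.07 (-1.88 to 1.75) for the ornithine aminotransferase gene Oat and -0.10 (-1.53 to 1.33) for the transcription factor gene Tbx3. All 3 changed sign in some of the fits that leave out 1 library.

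Over all 22 Wnt/β-catenin targets listed, 14 differences in change were negative and 8 positive (63.6% negative, against 49.5% of all genes), with a median of -0.22. The unadjusted p was under 0.05 in 3 negative members (Lect2, Notum and Ahr) and 1 positive member (Nkd1), against 1.06% and 0.836% of all genes. In zone 2, 4 members fell (Notum, Lect2, Cyp1a2 and Cyp27a1, against 1.01% of all genes), whereas in zone 3 none was called. The zone 2 count was 1 or 2 without dpc16 zone 2 replicate 2 or any 1 of the NP zone 2 libraries. The median change was -0.91 in zone 2 and -0.52 in zone 3. The step between the zones had a median of -1.70 at NP, with 8 members called lower in zone 2 (0.0828% of all genes), and of -2.12 at dpc16, with 9 called (0.174%). The NP count was 3 without NP zone 3 replicate 3, and 4 or 5 when any other NP library, dpc16 zone 2 replicate 2, dpc16 zone 3 replicate 1 or dpc16 zone 3 replicate 2 was left out, while the dpc16 count ran from 6 to 11 over these fits. At NP 19 members were lower in every zone 2 library (5.61% of all genes) and at dpc16 21 were (3.82%). The median difference in change turned to 0.10 without dpc16 zone 3 replicate 2, with 12 positive and 10 negative, and was -0.54 with replicate 3 of dpc16 zone 3 left out, so its sign rests on single libraries.

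**Figure D3:**
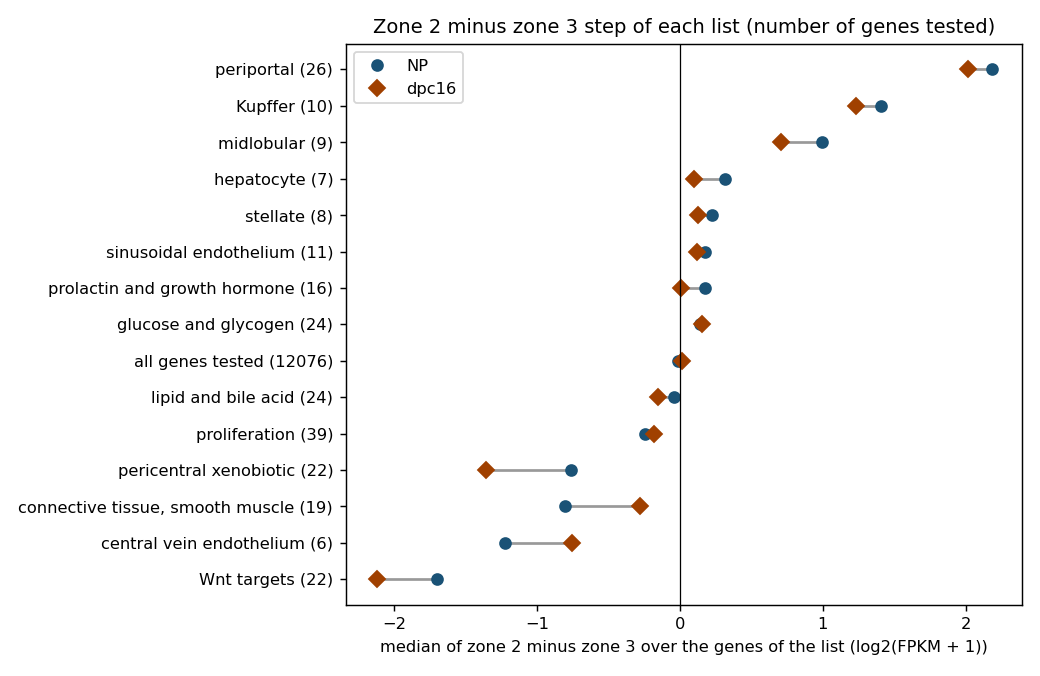
Median zone 2 minus zone 3 step (horizontal, log2) over the genes of each list at NP (circles) and at dpc16 (diamonds), with the number of genes tested beside the name. The pericentral enzyme list goes from -0.76 to -1.36 and the Wnt targets from -1.70 to -2.12, while the periportal list stays near 2.

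On the zone 2 side of the border, A1bg (ENSMUSG00000022347.8, chr15:60896859-60923012), which encodes a secreted plasma glycoprotein, had a called step at NP and none at dpc16. In zone 2 it stood at 230.0, 387 and 319 FPKM at NP and at 1483, 1389 and 451 at dpc16. In zone 3 it stood at 38.7, 30.4 and 16.1 FPKM at NP and at 875, 871 and 560.4 at dpc16. The zones were apart at NP and overlapped at dpc16, where the replicate 3 library of zone 2, which stood apart, was the only zone 2 library below a zone 3 library. A1bg rose in zone 3 by 4.76 (adjusted p = 0.0014), a call that held in all 12 fits that leave out 1 library, and its log2 change in zone 2 was 1.67 (adjusted p = 0.126). The step went from 3.46 at NP (adjusted p = 0.012) to 0.37 at dpc16 (adjusted p = 1), and the difference in change was -3.09 (95% interval -4.55 to -1.63, unadjusted p = 6.5e-04). The NP step was called in 8 of the 12 fits that leave out 1 library. Without dpc16 zone 2 replicate 3 the dpc16 step was 0.93 and still not called.

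Etnppl, which encodes an enzyme that breaks down phosphoethanolamine, had a smaller fitted step at dpc16 than at NP. It stood in zone 2 at 47.1, 94.6 and 78.2 FPKM at NP and at 15, 5.54 and 1.47 at dpc16, and in zone 3 at 0.339, 1.97 and 0.194 and at 0, 0.121 and 0.0342. The zone 2 libraries of dpc16 were all below those of NP, and the zone 3 libraries were near 0 throughout. Etnppl fell in zone 2 by 3.49 (adjusted p = 0.013, called in 9 of the 12 fits that leave out 1 library, and not with a pseudocount of 0.1). Its difference in change of -2.81 (-4.63 to -0.99) shrank to -1.62 with a pseudocount of 0.1, and at values this low in zone 3 the log2 scale understates any change there.

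Of the other genes of the portal side, 3 zone 1 markers are described. Cyp2f2, a cytochrome P450 of the outer lobule, stood at 347, 445 and 569 FPKM in NP zone 2, 2.61, 6.6 and 0.716 in NP zone 3, 285, 177 and 101 in dpc16 zone 2 and 2.2, 3.06 and 0.764 in dpc16 zone 3. Its steps of 6.95 and 5.93 were called in all 12 fits that leave out 1 library, and the difference in change was -1.01 (-2.66 to 0.64). Aldh1b1, a mitochondrial aldehyde dehydrogenase gene, had steps of 5.21 and 5.53 (adjusted p = 3.6e-04 and 2.1e-04) and a difference in change of 0.32 (-1.08 to 1.73), which changed sign with a pseudocount of 0.1. Cyp17a1, which makes steroid hormone precursors, stood at 79.7, 46 and 82 FPKM in NP zone 2, 7.38, 3.59 and 5.45 in NP zone 3, 391, 401 and 64.7 in dpc16 zone 2 and 11.9, 42.2 and 4.64 in dpc16 zone 3. The dpc16 replicate 3 libraries were the low ones in both zones, and the difference in change of Cyp17a1 was 0.46 (-1.91 to 2.83), or -0.23 without dpc16 zone 3 replicate 3.

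Of the 26 periportal genes listed, 18 had a negative and 8 a positive difference in change (69.2% negative, against 49.5% of all genes), with a median of -0.46, and Etnppl alone had an unadjusted p under 0.05 (1.06% of all genes with a negative value). The median step was 2.18 at NP and 2.02 at dpc16, with 10 and 7 members called higher in zone 2 (0.132% and 0.0828% of all genes). Leaving out any 1 NP library brought the NP count to 5 or 6. The dpc16 count was 16 without dpc16 zone 2 replicate 3, 2 without replicate 2 of that group, 3 without dpc16 zone 3 replicate 1, and 4 when dpc16 zone 2 replicate 1, dpc16 zone 3 replicate 3 or any 1 NP zone 2 library was left out. Etnppl alone fell in zone 2 (1 of 26, against 1.01% of all genes), and no member fell in zone 3 (0.381% of all genes). Without dpc16 zone 2 replicate 3, the library with the lowest array weight (0.187), the split became 16 positive and 10 negative with a median of 0.20. In that library the mean log2 level of the periportal list was 5.59, against 7.71 and 7.44 in the other dpc16 zone 2 libraries and 7.65 to 7.72 at NP.

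**Figure D4:**
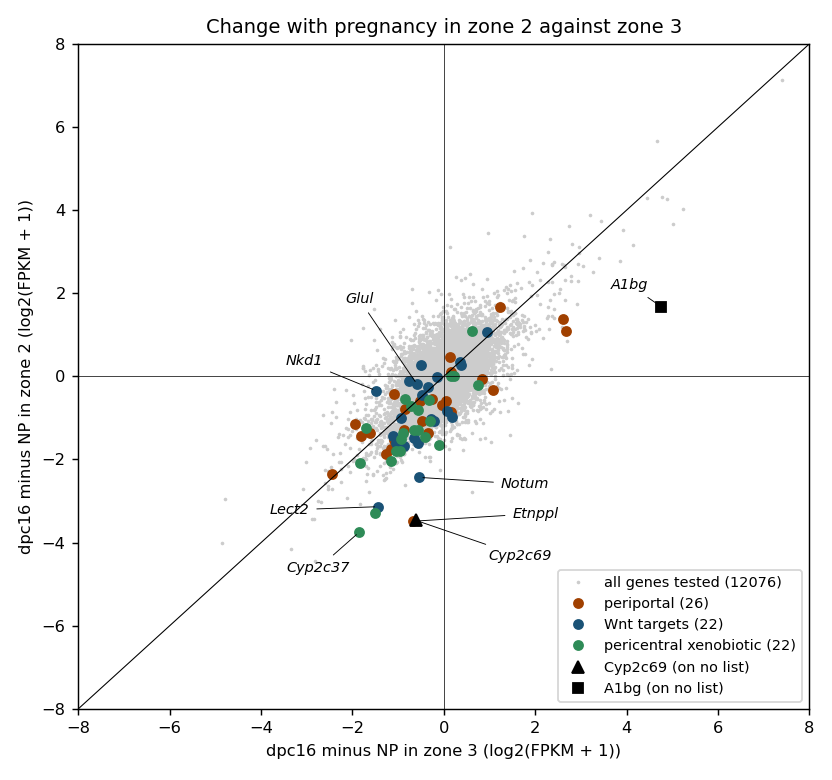
Log2 change from NP to dpc16 in zone 2 (vertical) against zone 3 (horizontal) for all 12076 genes tested (grey) and the genes of 3 lists (coloured), with the diagonal of equal change. Cyp2c69 lies below the diagonal at -0.61 and -3.47, and A1bg lies to its right at 4.76 and 1.67.

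Genes that separated the zones at dpc8, in 9 libraries that are not part of the comparison, gave sets that do not share its libraries. Of 18 genes higher in zone 3 than zone 2 at dpc8 (0.149% of those tested), Glul, Oat, Rhbg and Sp5 among them, 9 had a negative and 9 a positive difference in change, with a median of 0.04. Their median step was -2.14 at NP and -2.07 at dpc16, and all 18 were lower in zone 2 at both stages by the fitted means. Of 16 genes higher in zone 2 at dpc8 (0.132%), such as Sds, Hal and Cyp2f2, 12 were negative with a median of -0.47, and their median step was 3.65 at NP and 3.22 at dpc16. Among the broader class of 108 genes higher in zone 3 than zone 1 at dpc8 (0.894%), 73 were negative (67.6%) with a median of -0.17, and the median step went from -0.95 to -1.21. Among 74 genes higher in zone 1 (0.613%), 48 were negative (64.9%) with a median of -0.29. Without dpc8 zone 1 replicate 1 and dpc8 zone 2 replicate 2, which stood apart in the same way as the 3 libraries above, the classes held 15, 23, 145 and 105 genes (12, 15, 99 and 61 of them shared), with medians of 0.12, -0.43, -0.20 and -0.28. In the fits that leave out 1 of the 12 libraries compared, only the median of the class higher in zone 1 kept its sign.

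Zone 1 and dpc8 place these values in the whole lobule. NP zone 1 replicate 1, dpc8 zone 1 replicate 1 and dpc8 zone 2 replicate 2 had 15.4, 20.5 and 16.1 FPKM of Y-linked genes and connective tissue means of 6.23, 5.88 and 5.65, like the 3 libraries that stood apart. The mean log2 level of the Wnt targets was 3.21, 4.81 and 6.66 in zones 1, 2 and 3 at NP, 3.06, 4.39 and 6.57 at dpc8, and 2.79, 4.0 and 6.2 at dpc16 (means of 3 libraries). The pericentral enzymes averaged 6.83, 7.67 and 8.34 in these zones at NP, 7.06, 7.89 and 8.7 at dpc8, and 5.91, 6.43 and 7.68 at dpc16. The dpc16 means were below those of NP in each zone for both lists, whereas the dpc8 means were below them for the Wnt targets and above them for the pericentral enzymes. These directions were the same without the 6 libraries that stood apart, with zone 2 means of 4.81 at NP, 4.45 at dpc8 and 4.13 at dpc16 for the Wnt targets and of 7.67, 8.09 and 6.64 for the pericentral enzymes. Single genes showed where the genes with a large difference in change stood at the other positions. Cyp2c69 averaged 124 ± 42.4 FPKM (SD, n = 3) in zone 1 at NP and 9.06 ± 2.4 at dpc16, and 556 ± 246 in zone 2 and 1102 ± 209.6 in zone 3 at dpc8. Its dpc8 zone 2 level was thus near that of NP and not near that of dpc16. Lect2 averaged 23.8 ± 11.3 FPKM in zone 1 at NP and 0.929 ± 0.284 at dpc16, and 73.9 ± 28.4 in zone 2 at dpc8, between its NP and dpc16 means of 135 ± 38.6 and 14.2 ± 2.48. Notum averaged 9.95 ± 5.63 FPKM in zone 1 at NP and 1.98 ± 1.04 at dpc16, and 13.6 ± 4.83 in zone 2 at dpc8. These 3 genes were lowest in zone 1 and highest in zone 3 at each stage by their means. A1bg averaged 2753 ± 1631 FPKM in zone 2 and 1050.0 ± 677 in zone 3 at dpc8, so that its zone 3 level at dpc8 was already above the NP mean of 28.4 ± 11.4. Glul averaged 50.2 ± 23.7 FPKM in zone 1 at NP and 128 ± 16.2 at dpc16, and at dpc16 its zone 1 libraries stood at 113, 127 and 145 FPKM, beside the zone 2 values given before.

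**Figure D5:**
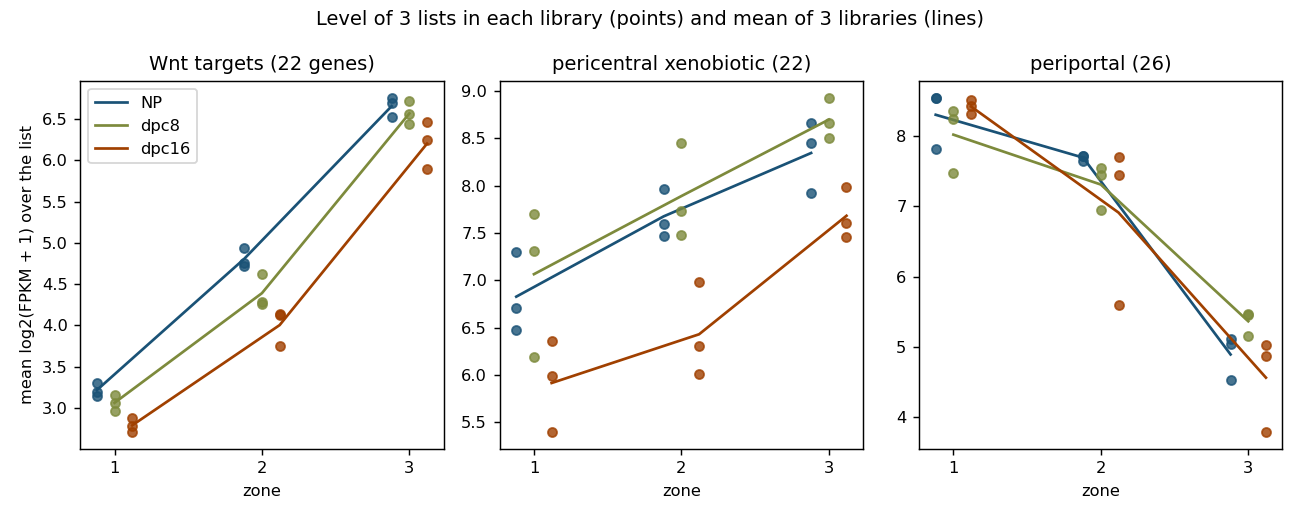
Mean log2(FPKM + 1) over the Wnt targets, the pericentral enzymes and the periportal genes (vertical) in zones 1, 2 and 3 (horizontal), with a point for each library and a line through the mean of 3 libraries at NP, dpc8 and dpc16. The Wnt targets climb from 2.79 in zone 1 to 6.2 in zone 3 at dpc16, and the dpc16 zone 2 libraries lie below those of NP.

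Of 39 proliferation genes tested, 20 had a positive and 19 a negative difference in change, with a median of 0.005. None of them had an unadjusted p under 0.05 for it (1.9% of all genes), and none was called in any of the comparisons, as is the case for nearly all genes. The median was -0.62 without dpc16 zone 2 replicate 3 and 0.53 with replicate 3 of dpc16 zone 3 left out. Mki67, whose protein marks cycling cells, stood at 2.17, 1.59 and 0.855 FPKM in NP zone 2, 0.934, 3.03 and 0.669 in NP zone 3, 2.04, 0.474 and 4.0 in dpc16 zone 2 and 2.97, 1.39 and 12.3 in dpc16 zone 3. The groups overlapped, and the difference in change was -0.91 (95% interval -2.88 to 1.06), or -0.20 without dpc16 zone 3 replicate 3 and -1.44 with replicate 2 of that group left out. Hmmr, a mitotic spindle protein and hyaluronan receptor, averaged 0.983 ± 1.3 FPKM in dpc16 zone 2 and 1.67 ± 1.89 in dpc16 zone 3, with a difference in change of -0.23 (-2.01 to 1.55) whose sign turned in 2 fits that leave out 1 library. Intervals this wide do not show that the zones acted alike. Ccnd1, cyclin D1 of the G1 phase and a gene of the middle zone, stood at 42.9, 74.4 and 71.4 FPKM in NP zone 2, 13, 45 and 26.9 in NP zone 3, 15.4, 19.7 and 21 in dpc16 zone 2 and 13.9, 13 and 26.4 in dpc16 zone 3. For Ccnd1 the difference in change was -1.12 (-2.41 to 0.17). Over 9 genes of the middle zone, 5 were positive and 4 negative with a median of 0.19, which was 1.2 without dpc16 zone 2 replicate 3 and -0.81 with replicate 3 of dpc16 zone 3 left out. Hamp, the iron hormone hepcidin, had a difference in change of 1.83 (-2.33 to 5.99).

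In glucose and glycogen metabolism, 16 of 24 genes were negative and 8 positive, with a median of -0.14 and a step near 0 at NP (0.14) and at dpc16 (0.15). The median ran from -0.33 without dpc16 zone 2 replicate 1 to 0.13 with replicate 3 of that group left out. The difference in change, not called in any of these, was -1.02 (-3.11 to 1.06) for the sugar transporter gene Slc45a3, -0.46 (-2.17 to 1.24) for the kinase gene Sgk1, -0.66 (-2.28 to 0.97) for H6pd of the pentose phosphate pathway in the endoplasmic reticulum, and -0.55 (-2.42 to 1.31) for the pyruvate dehydrogenase kinase gene Pdk4. The last 3 changed sign in 1 fit each that leaves out 1 library, and Slc45a3 ran from -1.58 without NP zone 3 replicate 1 to -0.22 with replicate 3 of NP zone 3 left out.

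Of 24 lipid and bile acid genes, 13 had a negative difference in change, with a median of -0.13. That median turned to 0.21 without dpc16 zone 2 replicate 3, to 0.23 without NP zone 3 replicate 2 and to 0.34 without the 3 libraries that stood apart. The log2 change itself had a median of -1.07 in zone 2, with 19 of 24 values negative and 3 members called (1.01% of all genes), and of -1.08 in zone 3, with 18 negative and 2 called (0.381%). Without 1 library 1 to 3 members were called in zone 2 and 0 to 4 in zone 3. The third member called in zone 2 was the bile acid uptake gene Slc10a1, with log2 changes of -1.8 in zone 2 and -1.48 in zone 3 (adjusted p = 0.049 and 0.156), and its zone 2 call held in 1 of the 12 fits that leave out 1 library. The bile acid and conjugate exporter gene Abcc3 fell in both zones (by 4.16 and 3.35, adjusted p = 0.005 and 0.018, called in 12 and 8 of the 12 fits that leave out 1 library), as did Srebf1, the regulator of fatty acid synthesis (by 2.27 and 2.54, adjusted p = 0.03 and 0.024, called in 7 and 8 of those fits). The receptors of the pregnancy-related pituitary hormones rose in both zones. Prlr, the prolactin receptor, rose by 2.27 in zone 2 and 2.28 in zone 3 (adjusted p = 0.025 and 0.04, called in 7 and 3 of those fits), and Ghr, the growth hormone receptor, by 2.75 and 2.42 (adjusted p = 0.0065 and 0.017, called in 12 and 7). Of the 16 genes of prolactin and growth hormone signalling, Prlr and Ghr were the 2 called in each zone, where 0.513% and 0.34% of all genes rose. The log2 change was negative in 6 of the 16 in zone 2 and in 7 in zone 3. The difference in change was negative in 9 and positive in 7, with a median of -0.03 (0.47 without dpc16 zone 2 replicate 3).

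Markers of other cell types that lie along the border were counted in full. All 10 Kupffer cell genes were higher in every zone 2 than in every zone 3 library at NP, and 2 were at dpc16, against 6.37% and 3.4% of all genes. Their mean log2 level was 4.76 to 5.54 in NP zone 2, 3.70 to 3.82 in NP zone 3, 2.92 to 4.73 in dpc16 zone 2 and 2.34 to 3.32 in dpc16 zone 3, lowest in the replicate 3 library of each dpc16 zone. Of the 10, 9 had a negative difference in change, with a median of -0.20 and none called. That median was -0.56 without dpc16 zone 2 replicate 1 and 0.44 with replicate 3 of that group left out. Without the 3 libraries that stood apart, the mean level was 5.14 in zone 2 and 3.81 in zone 3 at NP. At dpc16 it was then 4.64 and 3.23, so the fewer separated genes at dpc16 rest on these libraries. Of 19 connective tissue and smooth muscle genes tested, 16 were positive with a median of 0.50, in libraries whose content of these genes differed as given above. Of the 6 central vein endothelial genes tested, 5 were positive with a median of 0.09, and the median step went from -1.22 to -0.76. Vwf, von Willebrand factor of large-vessel endothelium, stood at 0.452, 0.399 and 2.01 FPKM in NP zone 2, 5.88, 2.68 and 5.46 in NP zone 3, 28.4, 62.7 and 3.35 in dpc16 zone 2 and 14.5, 15 and 3.81 in dpc16 zone 3. The dpc16 zone 2 libraries were all above the NP ones, with a difference in change of 2.5 (-0.06 to 5.06) and of 3.03 without both dpc16 replicate 3 libraries. With the connective tissue level as a covariate, the dpc16 step was called in 93 genes in place of 31, and Cyp2c69 had a difference in change of -2.80. The part of the other cell types in the hepatocyte results was not tested.

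Stellate cell genes (8 tested) were negative in 6 with a median of -0.56, and Lrat, which stores vitamin A as esters, fell in both zones (by 1.63 and 2.16, adjusted p = 0.037 and 0.012, called in 2 and 8 of the 12 fits that leave out 1 library). Of the 8, Lrat alone was called in either zone, where 1.01% and 0.381% of all genes fell. The log2 change was negative in 6 of the 8 in zone 2 and in 4 of the 8 in zone 3. Sinusoidal endothelial genes (11) were positive in 7 with a median of 0.02, erythroid genes (5) positive in 2 with a median of -0.14, and mitochondrially encoded genes (9) positive in 3 with a median of -0.09. General hepatocyte genes (7 tested) were negative in 6 with a median of -0.40. It ran from -0.69 without dpc16 zone 2 replicate 1 to 0.34 with replicate 3 of that group left out. In the biliary (3 of 6), lymphoid (2 of 6), adipose and muscle (2 of 7) and Y-linked (3 of 4) lists, the genes that passed the filter on low values had medians of -0.54, -0.46, 0.96 and 0.41. Of all 20 lists, 3 kept the sign of this median in each of the 12 fits that leave out 1 library (pericentral enzymes, stellate cell genes and lymphoid genes).

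The remaining genes with the smallest p for the difference in change came from outside the zonation lists, and none passed after adjustment. Pnliprp1, a relative of pancreatic lipase, was listed at 0 FPKM in all 6 NP libraries. It stood at 0, 0.259 and 0.146 FPKM in dpc16 zone 2 and at 4.96, 3.16 and 4.33 in dpc16 zone 3, with every zone 3 library above every zone 2 library. It was kept by the filter on low values only through the 3 dpc16 zone 3 libraries, so that these values are given as a description, with no test. The counts of calls given above include it, as lower in zone 2 at dpc16 and as risen in zone 3. The difference in change was -2.17 on the log2(FPKM + 1) scale, -4.34 with a pseudocount of 0.1 and -0.83 with a pseudocount of 5.

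Rnf157, a ubiquitin ligase gene, stood in zone 2 at 1.02, 0.77 and 0.58 FPKM at NP and at 2.84, 1.42 and 2.83 at dpc16, and in zone 3 at 6.61, 4.51 and 6.9 and at 0.303, 0.187 and 2.08. Its dpc16 libraries lay above those of NP in zone 2 and below them in zone 3 without overlap. The fall in zone 3 was called (adjusted p = 0.041) with all 12 libraries but in only 2 of the 12 fits that leave out 1 library. Ppp4r4, a subunit gene of protein phosphatase 4, stood in zone 2 at 2.39, 2.46 and 0.651 FPKM at NP and at 13.7, 17.7 and 9.04 at dpc16, and in zone 3 at 5.31, 7.99 and 4.34 and at 8.79, 6.06 and 6.73. It rose in zone 2 by 2.38 (adjusted p = 0.0076), a call that held in all 12 fits that leave out 1 library, and its difference in change was 2.11 (1.0 to 3.22).

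The other genes of smallest p with a positive difference in change were Usf1 (1.38), a transcription factor, Wdr4 (1.48), a subunit of a tRNA methyltransferase, 4921524J17Rik (2.03), Phf6 (2.08), a chromatin protein, and the histone H4 gene Hist2h4 (1.42), besides Pin4, Zfp638 and Lsm5. Those with a negative one were Fars2 (-1.41), a mitochondrial tRNA synthetase, and Trmt2a (-1.79), a tRNA methyltransferase, besides Gtpbp1, Mms19 and Apobec3. Fars2 rose in zone 3 by 1.48 (adjusted p = 0.018), a call that held in 6 of the 12 fits that leave out 1 library. In 7 of the genes with the smallest p, the dpc16 libraries lay beyond those of NP in opposite directions in the 2 zones, as in 22 of all 12076 genes (0.182%). Picking genes by a small p for the difference in change favours this pattern, so it is a description.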

How the data were processed

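RNA of microdissected zones 2 and 3 was compared in 12 of 27 libraries, grouped by sample title. The deposited values are FPKM, which the authors obtained with Cuffdiff (Cufflinks 2.2.1) for protein-coding genes of GENCODE. Before that, reads were trimmed (cutadapt) and mapped to mm10 (HISAT2 2.1.0), and reads with several matches were dropped. The sources used here name no further scaling, and whether Cuffdiff scaled the libraries to one another is not stated there. Without such scaling, a gene taking a large share of the reads (Albumin) lowers the FPKM of others, which was not tested. The table gives no read counts, and depth was estimated from the steps of low FPKM values in genes with 1 transcript, of which 86.4% to 97.9% fell on whole reads within a tolerance of 0.1. One read per kilobase corresponded to 0.03 to 0.0866 FPKM. These depths hold only if FPKM was scaled to mapped reads alone.

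Genes that reached 1 FPKM in 3 or more of the 12 libraries were kept (12076 of 21823), and limma 3.58.1 in R 4.3.3 was fitted to log2(FPKM + 1) with 4 group means, 8 residual degrees of freedom, an intensity trend and robust settings. On this scale, changes of weakly expressed genes come out too small. The 4 groups shared one estimate of the spread. Tests were two-sided with Benjamini-Hochberg adjustment over all genes and a threshold of 0.05. The procedure was tested on simulated data. Lists are described by counts and medians. Named were genes the study names, up to 10 per direction with the smallest p for the difference in change, and up to 4 per list. The members and lists were chosen with earlier results of these data known. Classes by zone at dpc8 came from a separate limma fit of the dpc8 libraries. Positions are from GENCODE vM21 (mm10), and promoters from RefSeq on GRCm38.p6. The authors' own comparisons were not used. Not all genes that the naming rule allows are described.

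Alternatives were other pseudocounts, filters, scalings, array weights, a connective tissue covariate, all 27 libraries, replicate blocks, and fits without 1 library or without those that stood apart. Same-numbered dpc16 libraries of the 2 zones deviated together from their group means (r = 0.63, 0.67 and 0.87), although libraries 1 and 2 also did across numbers (0.56 and 0.59). The dpc16 libraries thus met the criterion for pairing, but the values given come from the fit without a block, and the blocked fits are alternatives. At NP r was 0.27, 0.01 and -0.08.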

Additional observations from a re-analysis of the deposited data

Results flagged for a closer look

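Among the genes with the smallest p for the difference in change, 7 showed dpc16 libraries that all lay beyond the NP libraries, in opposite directions in the 2 zones. Over all genes tested, 22 of 12076 (0.182%) have this pattern. The difference itself was tested by the limma contrast between zones, and none of the 7 passed after adjustment, with unadjusted p from 2.1e-04 to 0.0057. They were picked for small p, so the pattern is a description.

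Rnf157, which encodes a ubiquitin ligase, had a difference of 2.925 (zone 2 minus zone 3, log2), which was 4.68 with a pseudocount of 0.1 and 1.26 with a pseudocount of 5, and its values are given above. Gtpbp1, a GTP-binding protein gene with a difference of -1.877, stood in zone 2 at 16.2, 16.5 and 19.5 FPKM at NP and at 6.54, 12.2 and 10 at dpc16, and in zone 3 at 9.89, 7.48 and 6.65 and at 18.1, 17.8 and 16.5. Mms19, of iron-sulfur cluster assembly (-2.308), stood in zone 2 at 25.1, 23.2 and 15.1 and at 5.03, 8.75 and 6.52, and in zone 3 at 6.14, 9.06 and 9.6 and at 11.9, 27.1 and 10.1. Apobec3, a cytidine deaminase gene of retroviral defence (-1.628), stood in zone 2 at 5.22, 3.88 and 3.6 and at 0.813, 2.0 and 1.63, and in zone 3 at 0.98, 0.976 and 1.52 and at 2.16, 1.8 and 2.37. These 3 were lower at dpc16 in zone 2 and higher at dpc16 in zone 3.

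Pin4, a peptidyl-prolyl isomerase gene (1.917), stood in zone 2 at 7.38, 11.3 and 7.39 FPKM at NP and at 23.2, 14.4 and 16.2 at dpc16, and in zone 3 at 18.1, 21.7 and 20.4 and at 13.1, 12.9 and 5.49. Zfp638, a zinc finger protein gene (1.251), stood in zone 2 at 30, 29.5 and 24.6 and at 35.8, 37.4 and 34.4, and in zone 3 at 33.6, 47.2 and 32.1 and at 16, 25 and 18.1. Lsm5, a subunit of the ring that binds U6 RNA (1.435), stood in zone 2 at 4.27, 6.78 and 7.14 and at 13, 7.26 and 11.6, and in zone 3 at 15.7, 8.86 and 13.8 and at 8.53, 6.41 and 6.61. With Rnf157, these were higher at dpc16 in zone 2 and lower in zone 3. The groups held 3 libraries each, so no test for a single outlying library was made.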

How the results depend on the processing

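The count of genes called for the difference in change was 0 with 12 libraries, 2 with all 27 libraries (Cyp2c69 at -2.86 and Pnliprp1 at -2.17), and 1, Cyp2c69, with quantile normalization (-2.88), array weights (-3.09), a connective tissue covariate (-2.80) and the replicate block of stage and number (-2.86). It was 0 with pseudocounts of 0.1 and 5, with no filter, a filter at an FPKM of 5, median centring, blocks of number alone, and in every fit that leaves out 1 library, both dpc16 replicate 3 libraries or the 3 libraries with Y-linked FPKM. The call of Pnliprp1 is a description only, since the filter on low values kept it through dpc16 zone 3 alone, where it is high. For zone 2 against zone 3 at NP (26 genes), the count was 50 with all 27 libraries, 16 with a pseudocount of 0.1, 15 with no filter, 59 with array weights, 58 with the replicate block, 51 with the covariate, 60 without the Y-linked libraries and 65 without both dpc16 replicate 3 libraries. At dpc16 (31 genes) it was 66 with all 27 libraries, with array weights 238, with the replicate block 100, with the covariate 93, without the Y-linked libraries 69 (33 higher and 36 lower) and without both replicate 3 libraries 66 (33 and 33). For dpc16 against NP in zone 2 (184 genes), it was 358 with all 27 libraries, 922 with array weights, 535 with the covariate, 385 without the Y-linked libraries (216 rose and 169 fell) and 343 without both replicate 3 libraries. In zone 3 (87 genes), the counts were 179, 572, 352, 293 (168 and 125) and 305. The block of stage and number leaves no fit for these 2 comparisons. The fit without both replicate 3 libraries, and the dpc8 classes and list means without the zone 1 and dpc8 libraries that stood apart, were chosen after seeing the data.

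Leaving out 1 library gave 10 to 38 genes at NP, 15 to 55 at dpc16, 61 to 187 in zone 2 and 23 to 187 in zone 3. Without dpc16 zone 2 replicate 3 the dpc16 count was 55 and the zone 3 count 187. The zone 2 count was lowest without NP zone 2 replicate 2 (61), and also low without dpc16 zone 2 replicate 2 (79), NP zone 2 replicate 1 (95) and replicate 3 (99). The zone 3 count was 23, 47 and 43 without NP zone 3 replicate 1, 2 and 3, and 28 and 27 without dpc16 zone 3 replicate 1 and 2. The dpc16 count was 15 without dpc16 zone 2 replicate 2 or dpc16 zone 3 replicate 1, and 19 with replicate 2 of dpc16 zone 3 left out. The NP count was 10 to 15 without any 1 NP library or dpc16 zone 2 replicate 2, and leaving out dpc16 zone 3 replicate 1 gave 17. With 2 libraries in a group, the group is assumed to vary like the others.

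Of 49 named differences in change, 18 turned sign or moved by over 1.5 times in at least 1 fit that leaves out 1 library, and 11 of these turned sign. Ccnd1 ran from -1.53 to -0.67, Cyp2f2 from -1.55 to -0.48, Glul from 0.085 to 0.70 and Lgr5 from -1.34 to -0.62. Over all alternatives 29 of the 49 turned sign or moved by over 1.5 times. With pseudocounts of 0.1 and 5, Lgr5 was -1.96 and -0.25, Rnf157 4.68 and 1.26, Hist2h4 2.29 and 0.56, Ppp4r4 2.64 and 1.25, Apobec3 -2.35 and -0.72, Phf6 2.44 and 1.29 and Vwf 3.38 and 1.51. Tbx3 was 0.096 with the covariate and -0.48 to 0.34 in the fits that leave out 1 library. Oat was 0.0464 with quantile normalization, 0.24 with the covariate and -0.80 to 0.47 in those fits. Slc1a2 was -0.020 with a pseudocount of 5 and otherwise -0.17 to 0.34. Aldh1b1 was -0.0398 with a pseudocount of 0.1 and otherwise -0.098 to 0.95. Wnt2 was -0.17 without the Y-linked libraries and otherwise -0.15 to 0.36. In the fits that leave out 1 library, Cyp17a1 ran from -0.23 to 1.32, Hmmr from -0.74 to 0.31, Sgk1 from -1.03 to 0.19, H6pd from -1.1 to 0.0022, Pdk4 from -1.12 to 0.16 and Rspo3 from -0.54 to 0.092. Of the other values for single genes and lists, 1378 kept their direction and their side of the threshold or moved by less than the spread between libraries, and 8, list medians, moved by more. Since no gene was called in the main fit, staying uncalled was the likely outcome, and this count does not measure stability. The cause was not tested. Depth limits genes near 1 FPKM.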
